A study of Mus musculus with 34 samples.

Results

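Levels of 6 genes of interleukin-6 receptor signaling were followed in hematopoietic stem cells (HSCs). The genes were found by name among the 13108 gene rows of a table of RNA-seq counts: *Il6ra*, *Il6st*, *Socs3*, *Ptpn11*, *Cbl* and *Pias3*. All 6 names were rows of the table. HSCs were sorted as LSK CD48-CD150+ cells, 100 cells per library, from C57BL/6 mice. *Ythdf2* CKO mice, which the sample labels call KO, carry Ythdf2 fl/fl;Vav-iCre, in which a Cre recombinase driven by a pan-hematopoietic promoter deletes a floxed exon of *Ythdf2*. *Ythdf2* CTL mice, labelled WT, are Ythdf2 fl/fl without the Cre, so that every group carries the floxed, GFP-tagged allele and the deletion in CKO mice covers all blood lineages, not HSCs alone. There were 4 CTL and 4 CKO young mice, aged 8 to 12 wk, and 4 CTL and 5 CKO aged mice, 1 year old. Each mouse gave 2 libraries, A and B. They were prepared with SMART-Seq2, which copies whole transcripts of small cell numbers.

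Interleukin-6 binds its receptor IL6RA, a chain with little signaling of its own, and the complex then engages gp130, the product of *Il6st*, which related cytokines of the family also use. Janus kinases bound to gp130 activate STAT transcription factors, and SHP2, the phosphatase encoded by *Ptpn11*, links the receptor to the Ras-MAPK pathway. SOCS3 is produced in response to the signal, binds gp130 and shuts the receptor off, PIAS3 inhibits STAT3, and CBL is a ubiquitin ligase that marks activated receptors and kinases for degradation. YTHDF2 binds m6A-modified mRNAs and promotes their decay, and inflammatory cytokines act on HSCs directly.

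Of the 34 libraries, aged CTL 99 B held 187034 counts and was left out, so that mouse 99 has 1 library. Summing the libraries per mouse left 2218618 to 10125624 counts for each. Levels are given as CPM, counts relative to the library total after TMM scaling of all 17 mice together. A floor of 3 counts, under which a level is read as not distinguished from 0, was 0.292 to 1.24 CPM per mouse. This floor reflects counting error alone, as reads carried no molecular identifiers. *Ythdf2* itself was lower in every young CKO mouse (50.3 to 60.3 CPM) than in any young CTL mouse (93.4 to 123 CPM), a log2 fold change of -0.95 (adjusted p = 0.0406, quasi-likelihood test of edgeR, Benjamini-Hochberg). Among aged mice the targeted gene went against 2 labels: the mouse labelled CTL 124 had 70.5 CPM against 142 to 179 CPM in the other CTL mice, and the mouse labelled CKO 121 had 188 CPM against 72.4 to 87.8 CPM in the other CKO mice. The fold changes of the 6 genes in aged mice, and those of other pathway genes, are therefore given with and without these mice. By the labels as given, the aged groups overlapped in *Ythdf2*, with a log2 fold change of -0.48 (adjusted p = 0.661, edgeR). All 12 HSC markers were detected in each group, and some markers of other blood cells were present too. Of the 4 B cell markers in the table, *Ms4a1* was at 0 in every mouse and *Cd79a* did not exceed 1.24 CPM, but *Cd79b* ranged from 32.5 to 152 CPM and *Vpreb1* reached 13.6 CPM. Reads of Y-linked genes were present in 3 of 4 young CTL, 1 of 4 young CKO, 1 of 4 aged CTL and 1 of 5 aged CKO mice, counting mice with more than 1 such read. The library identifiers in the labels differ between young and aged mice, so that age and the batch of libraries cannot be told apart.

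By the GENCODE annotation of GRCm38, *Il6ra* lies at chr3:89864059-89913196 on the minus strand, *Il6st* at chr13:112464070-112510086 on the plus strand, *Socs3* at chr11:117966079-117970047 on the minus strand, *Ptpn11* at chr5:121130533-121191397 on the minus strand, *Cbl* at chr9:44142976-44234049 on the minus strand and *Pias3* at chr3:96696384-96706070 on the plus strand. Counts are reads over the exons of these genes. An antisense gene, Gm42809, shares 242 exonic bases with *Il6ra*, and reads there cannot be assigned to one of the 2 genes without strand information. *Pias3* and *Nudt17* share 4 exonic bases on opposite strands.

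The 250 bases before the start site are shown for the receptor chains, of which *Il6ra* had the largest fold difference of the 6 between the young groups, and for *Socs3*, which was called between ages in both genotypes and is a known target of STAT3. The RefSeq start site of *Socs3* lies inside the GENCODE gene given above, whose model begins further upstream. Sequences are from RefSeq (GRCm38.p6), in the direction of transcription. Capitals mark a match to TTCNNNGAA, the core pattern that STAT dimers bind, which reads the same on both strands.

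Il6ra, chr3:89913197-89913446, minus strand: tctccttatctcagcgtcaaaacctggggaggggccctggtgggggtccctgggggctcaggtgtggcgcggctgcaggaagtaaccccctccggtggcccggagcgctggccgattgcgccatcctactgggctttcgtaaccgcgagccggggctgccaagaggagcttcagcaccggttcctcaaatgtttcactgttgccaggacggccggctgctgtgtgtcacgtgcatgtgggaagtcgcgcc

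Il6st, chr13:112463820-112464069, plus strand: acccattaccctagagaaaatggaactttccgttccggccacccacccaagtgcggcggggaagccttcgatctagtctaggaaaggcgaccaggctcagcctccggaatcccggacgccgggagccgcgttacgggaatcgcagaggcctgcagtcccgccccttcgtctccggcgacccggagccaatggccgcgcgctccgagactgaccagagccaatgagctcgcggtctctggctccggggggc

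Socs3, chr11:117969367-117969616, minus strand: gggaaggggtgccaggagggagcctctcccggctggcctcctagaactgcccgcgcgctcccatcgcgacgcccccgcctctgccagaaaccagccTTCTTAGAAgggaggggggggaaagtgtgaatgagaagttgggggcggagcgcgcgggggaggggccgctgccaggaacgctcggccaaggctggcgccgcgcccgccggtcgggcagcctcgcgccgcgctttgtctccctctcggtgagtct

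The *Socs3* window held 1 match, TTCTTAGAA, which begins 154 bases before the start site. The windows of the other 5 genes, from 250 bases before to 50 after the start site and with 2 start sites for *Pias3*, held no match. TTCNNNGAA was present in 2726 of 32851 such windows (8.298%). The same ends with 4 bases between them in place of 3 were in 6.953% of all windows and in none of these. All these windows were GC rich, from 60% in the first *Pias3* window to 74% in *Cbl*, against a median of 52.7% over all windows. A match is a description of the letters and not evidence of binding.

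To compare levels between genes, CPM was divided by the length of the merged exons in kilobases, since full-length libraries give longer transcripts more reads. In young CTL HSCs the order was *Pias3* (7.03 ± 1.69 CPM per kb, SD, n = 4), *Ptpn11* (4.61 ± 0.57), *Socs3* (1.38 ± 1.65), *Il6st* (0.795 ± 0.249), *Cbl* (0.762 ± 0.237) and *Il6ra* (0.21 ± 0.19). *Pias3* lay above *Ptpn11*, *Ptpn11* above *Socs3* and *Cbl* above *Il6ra* without overlap between mice, whereas *Socs3*, *Il6st* and *Cbl* overlapped. In aged CKO HSCs the order began with *Socs3* (24.6 ± 15 CPM per kb, SD, n = 5), followed by *Pias3* (9.56 ± 3.26), *Ptpn11* (5.7 ± 0.973), *Il6ra* (1.43 ± 0.327), *Cbl* (1.1 ± 0.397) and *Il6st* (1.04 ± 0.491). Of neighbours in this order, only *Ptpn11* and *Il6ra* did not overlap between mice, and *Socs3* also lay wholly above *Ptpn11*. Of the 6 genes *Socs3* reached the highest level, spanning 0.188 CPM per kb in a young CTL mouse to 46.0 in an aged CKO mouse.

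**Figure D1:**
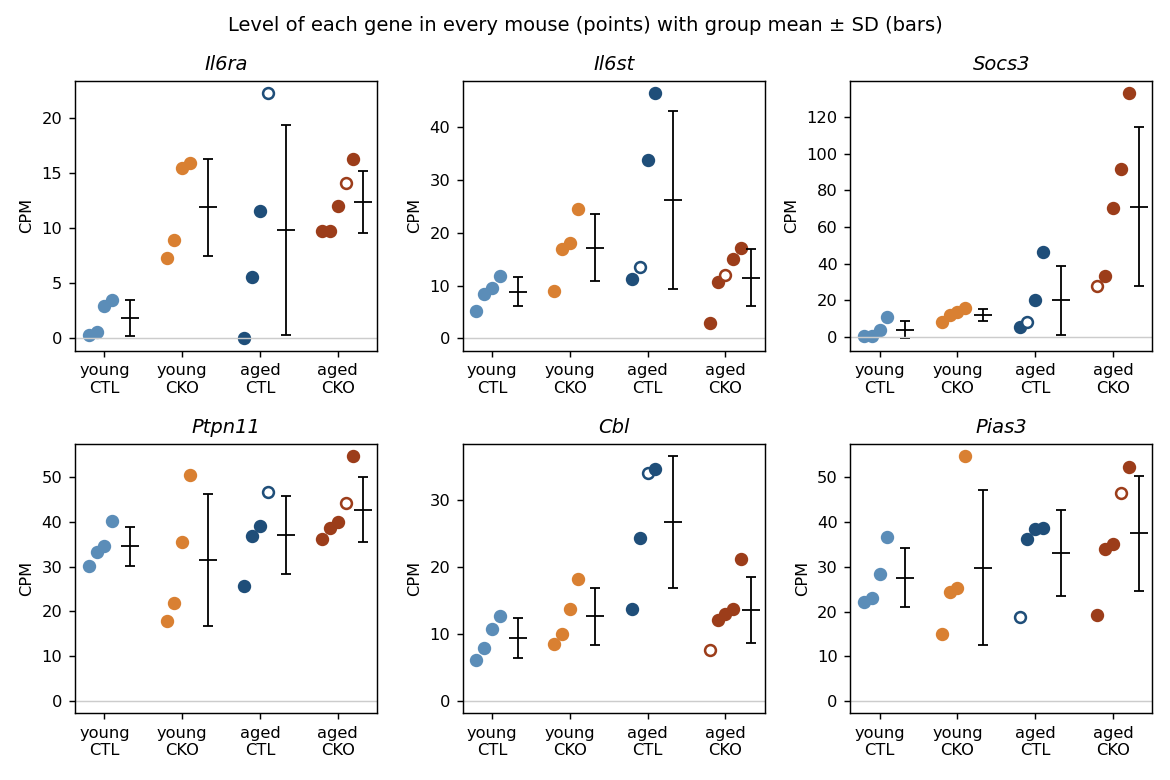
CPM of each gene (y axis) in every mouse of the 4 groups (x axis), 1 point per mouse, with the group mean ± SD as a bar beside the points and open points for the mice labelled aged CTL 124 and aged CKO 121. The 4 young CKO mice sit above the 4 young CTL mice for *Il6ra*, and *Socs3* reaches 132.9 CPM in an aged CKO mouse.

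The first comparison asks how loss of *Ythdf2* bears on the pathway in young HSCs. The receptor chains and *Socs3* had higher mean levels in CKO than in CTL HSCs, while *Ptpn11*, *Cbl* and *Pias3* differed by less than the spread between mice. No gene of the 6 was called at an adjusted p below 0.05 by edgeR's quasi-likelihood test, which called 20 of the 11526 genes tested (0.174%). At an unadjusted p below 0.05, 3 of the 6 were higher in CKO, against 4.26% of all genes higher and 7.06% in either direction. Of the 6, 5 had a positive log2 fold change, against 49.9% of all genes, with a median of 0.70 for the 6 and -0.0009 for all genes. The groups did not overlap for 1 of the 6, against 4.77% of all genes. In bulk samples, fewer cells of a type and less RNA per cell cannot be told apart.

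*Il6ra*, the ligand-binding chain, had levels of 3.52, 0.542, 0.29 and 2.93 CPM in young CTL mice 1 to 4. In young CKO mice 1 to 4 it had 7.32, 8.96, 15.5 and 15.9 CPM. Every CKO mouse lay above every CTL mouse, and CTL mice 2 and 3 were at or under the level that 3 counts give. The fitted difference was 6.68-fold, or 2.74 in log2 (standard error 0.69, 95% interval 1.38 to 4.10). Its unadjusted p was 0.00123 and its adjusted p 0.218 in edgeR's quasi-likelihood test. Permuting mice between the groups (exact permutation test, two-sided) gave p = 0.0286, the smallest that 4 against 4 mice allow. The call depended on the test. The adjusted p was 0.0138 by the likelihood ratio test over mice and 0.00971 by DESeq2, but 0.218 by limma voom. It was 0.0127 by the likelihood ratio test over libraries, which counts the 2 libraries of a mouse as separate replicates. The 2 libraries of a mouse did not carry the difference equally, since CKO mouse 3 had 79 counts in library A and 2 in library B, and CKO mouse 4 had 89 and 17. With library A alone the log2 fold change was 3.28, and with library B alone it was 1.396 (p = 0.125, edgeR).

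Other measured values differed between the same young groups. The summed level of the 12 HSC markers was 1646 to 2001 CPM in CTL and 2134 to 2664 CPM in CKO mice, without overlap. Most of this came from *Ly6a* (254 to 340 CPM in CTL and 417 to 907 CPM in CKO, adjusted p = 0.0201, edgeR), and 6 of the 12 markers had a negative log2 fold change, among them *Mecom* (-0.47). The summed level of the 8 megakaryocyte and platelet markers, led by *Pf4*, was 580 to 926 CPM in CTL and 1055 to 3226 CPM in CKO mice. *Pf4* alone was at 297 to 638 CPM and 745 to 2765 CPM, and 2 of the 8 had a negative log2 fold change, *Gp9* (-0.45, p = 0.0413) and *Gp1ba* (-0.25). *Cd48*, which the sort gates against, was at 53.9 to 87.1 CPM in CTL and 98.0 to 105.6 CPM in CKO mice (p = 0.00507, edgeR), without overlap. *Cd79b* was at 78.6 to 88.9 CPM and 89.8 to 152 CPM (p = 0.0091, edgeR), also without overlap. *Vpreb1*, the other B cell marker tested, had a log2 fold change of -1.64 (1.89 to 13.6 CPM and 0.989 to 2.25 CPM, p = 0.0396, edgeR). The granulocyte and progenitor markers summed to 184 to 272 CPM and 263 to 371 CPM, led by *Prtn3* (155 to 247 CPM and 246 to 345 CPM, p = 0.00848). Of the 6 tested markers of this list, 4 had a negative log2 fold change, among them *Mpo* (-1.49) and *Camp* (-0.91). The part of these markers in the results for *Il6ra*, *Il6st* and *Socs3* was not tested. Among mice with no Y-linked reads, *Il6ra* was 2.93 CPM in CTL mouse 4 and 8.96, 15.5 and 15.9 CPM in CKO mice 2 to 4, and with the Y-linked level as a covariate the log2 fold change was 2.30 (p = 0.00902, adjusted p = 0.567). The 10 monocyte and macrophage markers summed to 790 to 861 CPM in CTL and 759 to 950 CPM in CKO mice, nearly all from *Lyz2* (716 to 888 CPM) and *Ms4a6c* (23.6 to 58.2 CPM), whereas *Csf1r* did not exceed 1.45 CPM.

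*Il6st*, which encodes gp130, was measured at 5.28, 8.49, 11.9 and 9.64 CPM in young CTL mice 1 to 4. It was at 17.0, 18.1, 24.5 and 9.01 CPM in young CKO mice 1 to 4. CKO mice 1 to 3 exceeded all CTL mice and CKO mouse 4 lay inside their range, with a log2 fold change of 0.95 (standard error 0.40, p = 0.0316, adjusted p = 0.631, edgeR) and p = 0.0857 by the exact permutation test. The libraries of CKO mouse 1 gave 7 and 79 counts, and the log2 fold change was 1.23 from library A alone and 0.51 from library B alone. The ratio of *Il6ra* to *Il6st* per kilobase had a median of 0.236 in young CTL (range 0.0313 to 0.856) and 0.724 in young CKO mice (range 0.553 to 2.27), and these ranges overlapped.

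*Socs3*, the feedback inhibitor, had 3.96, 0.542, 10.7 and 0.69 CPM in young CTL mice 1 to 4. The young CKO mice 1 to 4 had 7.91, 13.5, 11.9 and 15.6 CPM. CTL mouse 3 lay inside the CKO range and the other 3 CTL mice lay below it. The log2 fold change was 1.60 (standard error 0.72, p = 0.0416, adjusted p = 0.675, edgeR), the exact permutation p was 0.0571, and without CTL mouse 3 the log2 fold change was 2.85 (adjusted p = 0.293). In CKO mouse 3, library A had 62 *Socs3* counts and library B had 0, the same pair of libraries that differed for *Il6ra*.

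The remaining genes differed little in young mice. *Ptpn11* ranged from 30.1 to 40.3 CPM in CTL and from 17.9 to 50.5 CPM in CKO mice, a log2 fold change of -0.13 (95% interval -0.72 to 0.46). *Cbl* ranged from 6.14 to 12.7 CPM in CTL and from 8.59 to 18.2 CPM in CKO mice, a log2 fold change of 0.44 (-0.36 to 1.24). *Pias3* ranged from 22.2 to 36.6 CPM in CTL and from 14.9 to 54.8 CPM in CKO mice, a log2 fold change of 0.11 (-0.57 to 0.79). For *Ptpn11* and *Pias3* the CKO mice spread to both sides of the CTL mice, so that the SD was 14.8 and 17.3 CPM in CKO against 4.27 and 6.61 CPM in CTL.

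**Figure D2:**
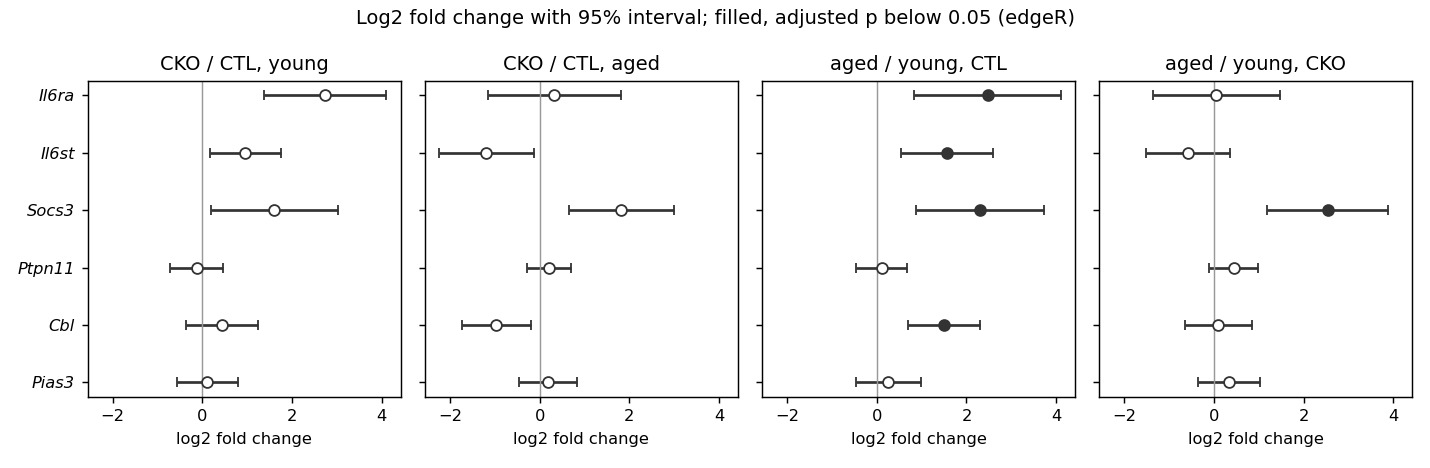
Log2 fold change (x axis) of each gene (y axis) in 4 comparisons, with 95% intervals from the edgeR fit as bars and filled points where the adjusted p was below 0.05. The filled points are *Il6ra*, *Il6st*, *Socs3* and *Cbl* in aged against young CTL mice and *Socs3* in aged against young CKO mice.

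In the same genotype comparison in aged HSCs, *Socs3* had a higher and *Il6st* and *Cbl* a lower mean level in CKO mice, and *Il6ra*, *Ptpn11* and *Pias3* differed by less than the spread between mice. No gene of the 6 was called, and edgeR's quasi-likelihood test called 0 of 11961 genes (0%), although 1208 had an unadjusted p below 0.05. By other tools, 76 were called by the likelihood ratio test over mice, 104 by DESeq2 and 0 by limma voom. The likelihood ratio test over libraries, with the libraries of a mouse as separate replicates, called 420. None of the 6 was among them. At an unadjusted p below 0.05, *Socs3* was higher and *Il6st* and *Cbl* were lower in CKO, 3 of 6 against 10.1% of all genes. A positive log2 fold change was found for 4 of the 6 against 49.7% of all genes, and the groups overlapped for all 6, while 3.48% of all genes had groups without overlap.

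*Socs3* was measured at 20.1, 5.36, 46.6 and 7.99 CPM in the mice labelled aged CTL 65, 99, 114 and 124. In the mice labelled aged CKO 78, 81, 94, 121 and 122 it was at 70.1, 33.3, 91.7, 27.6 and 132.9 CPM. CTL 114 lay inside the CKO range and the other 3 CTL mice lay below every CKO mouse. The log2 fold change was 1.82 (standard error 0.60, 95% interval 0.65 to 3.00), with an unadjusted p of 0.00897, an adjusted p of 0.38 by edgeR and an exact permutation p of 0.0476. Leaving out the mice labelled 121 and 124 gave 1.73 (p = 0.0081, adjusted p = 0.236), and leaving out CTL 114 gave 2.62 (adjusted p = 0.393). Among the aged mice, the summed megakaryocyte and platelet markers were 421 to 632 CPM in CTL and 610 to 2186 CPM in CKO mice (1790 to 2186 CPM without the mouse labelled CKO 121), the granulocyte and progenitor markers 209 to 548 CPM and 319 to 566 CPM, and the part of either list was not tested. Of the granulocyte list, *Prtn3* carried most of the level, at 167 to 445 CPM in CTL and 311 to 518 CPM in CKO mice. *Mpo* was at 8.27 to 80.8 CPM in CTL and 0 to 6.23 CPM in CKO mice, *S100a8*, *S100a9* and *Ngp* reached 34.8, 24.7 and 29.6 CPM, and *Elane* was under 1 CPM.

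*Il6st* had 46.5, 33.8, 11.2 and 13.6 CPM in aged CTL 65, 99, 114 and 124. In aged CKO 78, 81, 94, 121 and 122 it had 10.7, 2.92, 17.1, 11.98 and 15.1 CPM. CTL 65 and 99 exceeded every CKO mouse, and CTL 114 and 124 lay among them. The log2 fold change was -1.19 (standard error 0.54, p = 0.0458, adjusted p = 0.488, edgeR), the exact permutation p was 0.183, and the value without the mice labelled 121 and 124 was -1.43 (p = 0.0263, adjusted p = 0.353). Without CTL 65 it was -0.76, and it was -1.58 from library A alone and -0.39 from library B alone.

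*Cbl* had 13.7, 34.7, 24.4 and 34.1 CPM in aged CTL 65, 99, 114 and 124. The aged CKO mice 78, 81, 94, 121 and 122 had 13.1, 12.2, 21.2, 7.63 and 13.8 CPM. CTL 65 lay inside the CKO range, and the other 3 CTL mice lay above every CKO mouse. The log2 fold change was -0.97 (standard error 0.40, p = 0.0289, adjusted p = 0.435, edgeR) with an exact permutation p of 0.0556, and without the mice labelled 121 and 124 it was -0.68 (p = 0.112). From library A alone it was -1.23 and from library B alone -0.54. Of the multipotent and lymphoid progenitor markers, *Flt3* (-1.38, p = 0.0125, edgeR) and *Satb1* (-3.23, p = 0.0136, edgeR) were also lower in aged CKO mice. Both had an adjusted p of 0.398. *Cd34* (0.09) and *Cd48* (0.07) were not lower, and the part of these markers in the results for *Il6st* and *Cbl* was not tested.

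*Il6ra* showed no stable difference between the aged groups. CTL 65, 99, 114 and 124 had 5.56, 0, 11.5 and 22.3 CPM, and CKO 78, 81, 94, 121 and 122 had 9.78, 16.3, 9.73, 14.1 and 12.05 CPM. The CTL mice spanned the whole CKO range on both sides, from no count in the 1 library of CTL 99, which allows up to 1.24 CPM, to the highest level of all 17 mice in CTL 124. The log2 fold change was 0.33 (95% interval -1.15 to 1.81), 1.02 (p = 0.228) without the mice labelled 121 and 124, and -0.079 without CTL 99. *Ptpn11* (25.6 to 46.7 CPM in CTL, 36.1 to 54.7 CPM in CKO) and *Pias3* (18.8 to 38.7 CPM in CTL, 19.3 to 52.3 CPM in CKO) had log2 fold changes of 0.21 (-0.28 to 0.70) and 0.19 (-0.46 to 0.84), and of 0.31 and -0.11 without the mice labelled 121 and 124.

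Whether the genotype effect differed between the ages was tested by the interaction of genotype and age over all 17 mice. edgeR's quasi-likelihood test called 0 of 12352 genes (0%), with 588 genes at an unadjusted p below 0.05, and the likelihood ratio test over mice called 4, DESeq2 0 and limma voom 0. The CKO against CTL difference was smaller or of the opposite sign in aged mice for *Il6st* (difference of log2 fold changes -2.14, standard error 0.71, p = 0.00618), *Cbl* (-1.405, standard error 0.56, p = 0.0194) and *Il6ra* (-2.42, standard error 1.09, p = 0.0365). Adjusted over all genes these p-values were 0.942, 0.998 and 0.999, so that none passed, and 3 of 6 at an unadjusted p below 0.05 in this direction compares with 2.7% of all genes. Without the mice labelled 121 and 124 the values were -2.37 (p = 0.00356), -1.11 (p = 0.0602) and -1.71 (p = 0.134). For *Socs3* the difference was 0.22 (95% interval -1.68 to 2.12), for *Ptpn11* 0.33 (-0.46 to 1.12) and for *Pias3* 0.07 (-0.92 to 1.07).

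Levels were also compared between the ages within each genotype, with the limit that age and the batch of libraries cannot be told apart. In CTL HSCs, *Il6ra*, *Il6st*, *Socs3* and *Cbl* rose from young to aged mice, and *Ptpn11* and *Pias3* did not pass the test. These are 4 of 6 genes called, all higher, where edgeR's quasi-likelihood test called 14.8% of all genes and 6.7% of all genes as higher in aged mice. Markers of other cells moved with age too. In young and aged CTL mice *Cd48* was at 53.9 to 87.1 CPM and 0.629 to 28.2 CPM (adjusted p = 0.0273, edgeR), the monocyte and macrophage markers summed to 790 to 861 CPM and 419 to 738 CPM, and the 3 T and NK cell markers in the table, nearly all *Nkg7*, to 404 to 533 CPM and 158 to 326 CPM. None of these overlapped, and their part in the results between ages was not tested. The log2 fold changes were 2.47 for *Il6ra* (standard error 0.83, adjusted p = 0.0494), 1.56 for *Il6st* (0.52, 0.0468), 2.31 for *Socs3* (0.73, 0.0372) and 1.499 for *Cbl* (0.41, 0.0191). Exact permutation tests over the 4 and 4 mice gave p = 0.343, 0.0571, 0.114 and 0.0286 in the same order. The median over all genes was 0.11, so that the values relative to it are slightly smaller. Of the 6 genes, *Cbl* alone had aged CTL mice that all lay above all young CTL mice, where 17.1% of all genes had groups without overlap. The calls of *Il6ra* and *Il6st* were close to the threshold: leaving out any 1 of the 17 mice left between 0 and 3 of the 4 calls, and without the mice labelled 121 and 124 *Il6ra* had 1.71 (adjusted p = 0.16) while the other 3 stayed called. Without young CTL 2 no call was left. *Cbl* was also lost without young CTL 3 or aged CTL 99, and *Socs3* without young CTL 1, young CTL 4 or aged CTL 114. *Il6ra* stayed called only without aged CTL 65 or aged CTL 99.

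Between young and aged CKO HSCs *Socs3* was the only one of the 6 called, 1 of 6 against 16.6% of all genes called and 7.21% called as higher. It rose from a range of 7.91 to 15.6 CPM in young mice to one of 27.6 to 132.9 CPM in aged mice (2.53 in log2, standard error 0.69, adjusted p = 0.0148, edgeR). The groups did not overlap, where 20.4% of all genes had groups without overlap. The exact permutation test gave p = 0.0159. *Ythdf2* itself was also called higher in aged than in young CKO mice (0.83 in log2, adjusted p = 0.0433, edgeR), without overlap. *Cd48* was at 98.0 to 105.6 CPM in young and 1.86 to 19.5 CPM in aged CKO mice (adjusted p = 0.00489), the granulocyte and progenitor markers summed to 263 to 371 CPM and 319 to 566 CPM, and their part was not tested. *Socs3* remained called when any 1 mouse was left out (log2 fold change 2.17 to 2.73) and without the mice labelled 121 and 124 (2.74, adjusted p = 0.00591). *Il6ra* had a log2 fold change of 0.05 (95% interval -1.36 to 1.47), *Il6st* -0.57 (-1.52 to 0.37), *Cbl* 0.09 (-0.65 to 0.84), *Ptpn11* 0.44 (-0.11 to 0.99) and *Pias3* 0.33 (-0.36 to 1.02). The age comparisons of CTL and CKO mice and the 2 genotype comparisons share groups, so their values are given side by side and are not independent of each other.

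The levels of these genes varied between the 2 samples of 100 cells taken from a mouse. Over the 16 mice with 2 libraries, the median fold between libraries A and B on the CPM + 1 scale was 1.54 for *Il6ra*, 1.71 for *Il6st*, 2.22 for *Socs3*, 1.54 for *Ptpn11*, 1.96 for *Cbl* and 1.84 for *Pias3*, against 1.22 for *Ythdf2*. The largest fold was 10.8 for *Il6ra* and 18.8 for *Socs3*, both in young CKO mouse 3, 9.45 for *Il6st* in young CKO mouse 1 and 7.24 for *Ptpn11* in the mouse labelled aged CTL 124. On the log2 scale the SD within a mouse exceeded the SD between mice of a group for *Il6st* (1.05 against 0.79), *Socs3* (1.30 against 1.23), *Ptpn11* (0.69 against 0.41), *Cbl* (0.82 against 0.52) and *Pias3* (0.67 against 0.56), and not for *Il6ra* (0.98 against 1.55). The SD within a mouse was taken over single libraries on the CPM + 1 scale. The SD between mice was taken over mouse totals at a prior count of 2. A total of 2 libraries spreads less than a single library, so these SDs cannot say which source of spread was larger. The 1.55 of *Il6ra* includes aged CTL 99, at 0 counts, which is not among the 16 mice. In its group the SD was 2.73, against at most 1.34 in the other groups.

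**Figure D3:**
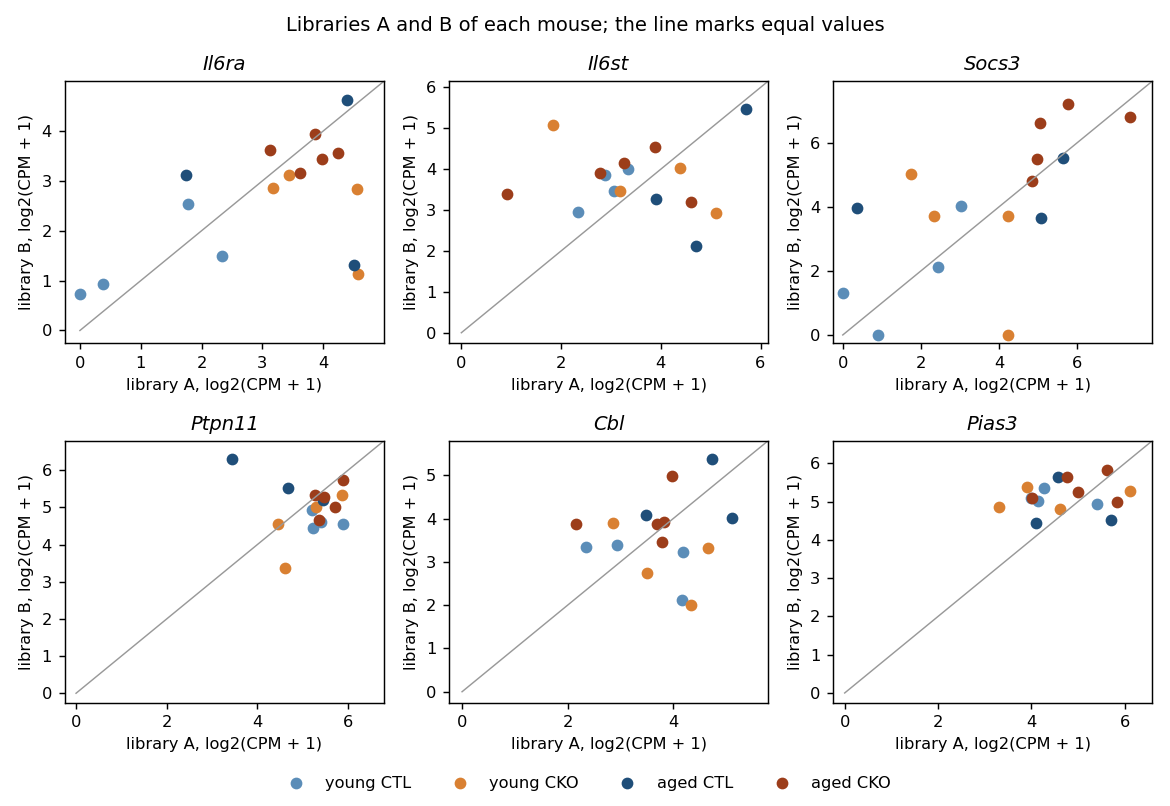
Log2(CPM + 1) of each gene in library B (y axis) against library A (x axis) of the same mouse, 1 point per mouse with 2 libraries, colored by group, with a line at equal values. *Socs3* in young CKO mouse 3 lies farthest from the line, with 62 counts in library A and 0 in library B.

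The rest of the pathway was followed through 10 lists of 73 genes in all, of which 64 besides the 6 were rows of the table. In young mice 61 of those 64 were tested. Of these, 1 was called, as higher in CKO (1.64% against 0.174% of all genes). An unadjusted p below 0.05 was found for 5 higher and 2 lower genes, 11.5% against 7.06% of all genes, and their median log2 fold change was 0.06. In aged mice 63 were tested, 0 were called by edgeR, and 3 higher and 5 lower genes had an unadjusted p below 0.05, 12.7% against 10.1% of all genes, with a median of 0.02. Without the mice labelled 121 and 124, the unadjusted counts were 2 higher and 9 lower (17.5% against 11.6% of all genes), the median was -0.05 and 1 gene was called. It was *Ebi3*, a subunit of interleukin-27, at -3.01 (adjusted p = 0.00173) against -1.50 with all mice, and is named after its value was seen. *Il6* itself had at most 20 counts in any mouse and was not tested.

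Among ligands and receptors, *Osm*, which encodes the gp130 cytokine oncostatin M, had 9.79 ± 5.06 CPM in young CTL and 11.6 ± 5.08 CPM in young CKO mice (p = 0.6), and 5.37 ± 4.67 and 18.3 ± 10.3 CPM in aged mice (log2 fold change 1.80, p = 0.0297, adjusted p = 0.436, edgeR; 1.32 and p = 0.0717 without the mice labelled 121 and 124). *Il27ra*, which pairs with gp130 in the interleukin-27 receptor, had the smallest p of the receptors after *Il6ra* and *Il6st* in young mice, with a log2 fold change of 0.50 (p = 0.132). *Adam17*, the protease that sheds the interleukin-6 receptor, had -0.20 in young mice (p = 0.309), and *Adam10* -0.03 in aged mice (p = 0.879) and 0.037 without those mice. *Jak1*, a kinase bound to gp130, had -0.27 in aged mice (p = 0.115), and -0.42 without those mice (p = 0.0143, adjusted p = 0.284).

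Among inhibitors, *Socs2*, of the same family as *Socs3* and best known as a brake on growth hormone signaling, was lower in every young CKO than in any young CTL mouse, at 50.3 ± 12.8 against 90.3 ± 21.2 CPM (log2 fold change -0.84, p = 0.00215, adjusted p = 0.284, edgeR). In aged mice *Socs2* had 21.4 ± 21.8 CPM in CKO and 56.9 ± 40.7 CPM in CTL (-1.41, p = 0.0417, adjusted p = 0.473), and -1.70 without the mice labelled 121 and 124 (p = 0.00307, adjusted p = 0.16). *Socs3* and *Socs2* thus had log2 fold changes of opposite sign at both ages. Of the other regulators with the smallest p in their lists, *Pias4* had 0.55 (p = 0.261), *Ptpn1* 0.26 (p = 0.223) and *Cblb* -0.45 (p = 0.25) in young mice. In aged mice *Ptprc*, which encodes the phosphatase CD45, was lower in every CKO mouse (211 ± 30.1 CPM) than in any CTL mouse (288 ± 44.4 CPM), a log2 fold change of -0.44 (p = 0.0207, adjusted p = 0.415), and of -0.42 without those mice.

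Downstream, *Pik3ca*, a catalytic subunit of PI3-kinase, had a log2 fold change of -0.55 in aged mice (p = 0.0278, adjusted p = 0.435), and -0.50 without those mice. Of the 12 transcriptional targets, 10 had a positive log2 fold change in young and 10 in aged mice, with medians of 0.32 and 0.44, where 49.9% and 49.7% of all genes were positive. Without the mice labelled 121 and 124, 8 of the 12 were positive in aged mice, with a median of 0.32. *Batf*, an AP-1 family factor, was at 124 ± 11.4 CPM in young CKO and 80.9 ± 8.2 CPM in young CTL mice without overlap (0.62, p = 0.00117, adjusted p = 0.217, edgeR). *Junb*, another AP-1 factor, was at 510 ± 196 CPM in aged CKO and 258 ± 106 CPM in aged CTL mice (0.99, p = 0.00738, adjusted p = 0.361), and had 0.95 without those mice (p = 0.0183). The targets and lists were chosen with earlier results of these data known, so their counts are descriptions.

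**Figure D4:**
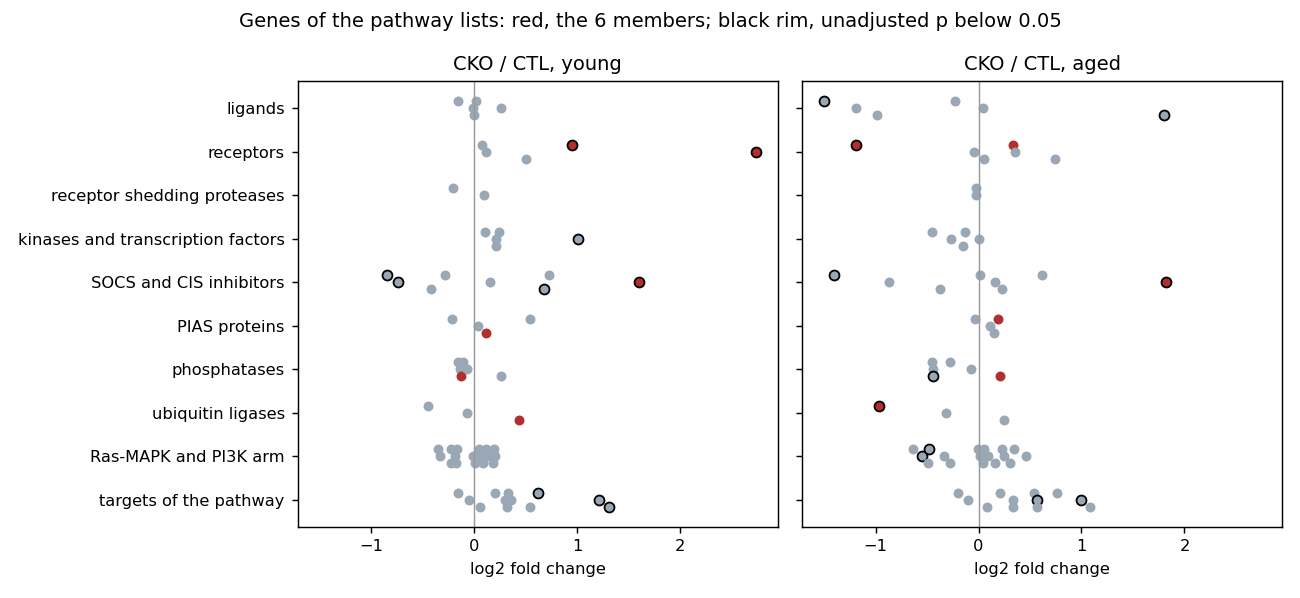
Log2 fold change (x axis) of the tested genes of each pathway list (y axis) in young (left) and aged mice (right), 1 point per gene, with the 6 genes in red and a black rim at an unadjusted p below 0.05. *Il6ra* has the largest log2 fold change in young mice, 2.74, and *Socs3* the largest in aged mice, 1.82.

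Finally, each gene was set beside all 12351 other genes tested in the fit of 17 mice, by Pearson's r of log2 CPM after subtracting the mean of the mouse's age. These are the highest of 12351 values for each gene, share the same libraries and are descriptions without a p. The 3 most alike for *Il6ra* were *Oas1a* (r = 0.91, Spearman's rho 0.76, and r = 0.74 without the 2 mice farthest from the median of *Il6ra*), *Akap1* (0.87, 0.86 and 0.73) and *Knop1* (0.84, 0.79 and 0.68). For *Socs3* they were *Prtn3* (0.85, 0.82 and 0.78), *Slpi* (0.84, 0.82 and 0.85) and *St6galnac4* (0.83, 0.78 and 0.79). *Il6st* was most like *Gbp8* (0.75), *Lyst* (0.74) and *Pbld2* (0.73), and *Cbl* most like *Zfp428* (0.81), *Kdm6a* (0.80) and *Cry2* (0.78). *Ptpn11* was most like *Ifitm2* (0.84), *Psenen* (0.83) and *Tspo* (0.82), and *Pias3* most like *Zfp1* (0.86), *Psap* (0.79) and *Gpatch2l* (0.77). Among the 6 genes themselves the highest r was 0.52, between *Il6ra* and *Socs3*, and the receptor chains *Il6ra* and *Il6st* had -0.22.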

How the data were processed

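RNA of 100 HSCs per library was sequenced, and the authors aligned reads to GRCm38 (mm10) with HISAT2 and assigned them to genes with Rsubread. The deposited values are raw counts, whole numbers per gene and library. Versions, annotation and use of strand are not given in the sources used here. Libraries were summed so that the mouse is the replicate (17 mice, totals as given above, 33 of 34 libraries). Low genes were removed with filterByExpr of edgeR 4.0.16 under R 4.3.3, at a minimum count of 10 and a minimum total of 15. TMM factors and glmQLFTest followed, with adjustment over every tested gene and a threshold of 0.05. Each age had its own genotype fit, whereas interaction and age contrasts used all mice together. The standard error was derived from the F statistic, and 95% intervals are normal approximations around it. Log2 CPM carried a prior count of 2. The edgeR quasi-likelihood fit was tested on simulated data for each genotype comparison and the interaction, and the permutation test on an example of known answer. The age contrasts and the other tools were not tested in this way.

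Named genes are the 6 genes and *Ythdf2*, the gene of smallest p (and any gene called) per pathway list and genotype comparison, the 3 closest genes by correlation, and markers that lead a list or are at or near 0. Marker genes, among them members that went against the rest of a list, were named after their values were seen. The genes and lists were chosen with earlier results of these data known, and some genes that the rule picks are left out of the text but stay in every count. Alternatives covered limma voom 3.58.1, DESeq2 1.42.0, likelihood ratio tests, size factors, filters, blocks, Y-linked reads as a covariate, and mice or libraries left out. The likelihood ratio test over libraries and the block on the library letter took each library as a replicate, without a term for the mouse. Fits on library A or B alone and the mice left out of the age contrasts were chosen after seeing the data.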

Additional observations from a re-analysis of the deposited data

Results flagged for a closer look

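The mouse labelled aged CTL 124 stood apart from its group in *Pias3*, with 18.8 CPM where the next mouse had 36.3 CPM, and the mouse labelled aged CKO 121 stood apart in *Ythdf2*, with 188 CPM where the next mouse had 87.8 CPM. These were 2 of 28 groups examined, for 6 genes and *Ythdf2* in 4 groups, where about 1 in 20 would be marked by chance. Both mice are those whose *Ythdf2* level went against their label.

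The library of aged CTL mouse 99 that was left out for its low total held reads of 5 of the 6 genes at shares above those of every other aged CTL library. Of all 11961 genes tested in aged mice, 39.1% were above in the same way, and 45% of those with at least 1 count in this library. The share among the 6 genes was 83.3%, and the shares were not tested against each other. Scaled to CPM by its own total, it had 42.8 for *Il6ra* (8 counts), against at most 23.8 in the other aged CTL libraries. It had 101.6 for *Il6st* (19 counts, against at most 51.7), 90.9 for *Socs3* (17 counts, against 49.4), 229.9 for *Cbl* (43 counts, against 40.7) and 58.8 for *Pias3* (11 counts, against 52.1). *Ptpn11*, at 74.9 (14 counts), was not above the highest other library (77.7). The library of the same mouse that was used had 0 *Il6ra* counts, so the samples of this mouse differed in whether the gene was seen at all. The part of the low total in these shares was not tested.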

How the results depend on the processing

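The count of the 6 genes called in young CKO against CTL mice, 0, became 1 (*Il6ra*) by the likelihood ratio test over mice, by that test over libraries and by DESeq2, and was unchanged in the other 10 alternatives and with each mouse left out. In aged mice and for the difference between ages it was 0 in every alternative run. In aged against young CTL mice the 4 calls became 2 without a filter on low counts (*Il6ra* 0.0519, *Il6st* 0.0504 adjusted), 3 with DESeq2 size factors, and between 0 and 3 with a mouse left out.

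Signs turned only for differences that no test called. In young mice, *Pias3* was -0.090 by limma voom and -0.0023 with the replicate block, and -0.35 to 0.33 with a mouse left out. *Ptpn11* was 0.073 from library B alone and -0.46 to 0.063 with a mouse left out. In aged mice, *Pias3* was -0.11 without the mice labelled 121 and 124 and -0.021 to 0.35 with a mouse left out, *Il6ra* was -0.026 from library B and -0.079 to 1.07, and *Ptpn11* -0.52 from library B. The difference between ages was -0.175 for *Pias3* with the Y-linked covariate, -0.21 without the mice labelled 121 and 124, and -0.15 to 0.54 with a mouse left out, and -1.06 to 1.03 for *Socs3*. Between ages, *Ptpn11* in CTL mice was -0.018 without those 2 mice and -0.033 to 0.24 with a mouse left out, and in CKO mice *Il6ra* was -0.13 to 0.23 and *Cbl* -0.12 to 0.32. The cause was not tested.

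Young mice of both genotypes share numbers although they are different animals. Same-numbered mice did not deviate together (r from -0.02 to 0.05), and a replicate block on the number left 0 of the 6 genes and 14 genes in all called, against 20. A block on the library letter called 50 genes in young and 40 in aged mice, none of the 6. Over all genes, the young count of 20 was 67 and 90 by the likelihood ratio tests, 77 by DESeq2, 9 with the Y-linked covariate, 1 with all mice in 1 fit, 0 from 1 library of each mouse and 0 to 18 with a mouse left out. The aged count of 0 was 76, 420 and 104 by those tests, 5 with all mice, 40 without the mice labelled 121 and 124 and up to 16 with a mouse left out. For the difference between ages, 0 became 4 and 3 by the likelihood ratio tests, 15 without those mice and up to 2. With a mouse left out, 896 to 2048 genes were called between ages in CTL and 1183 to 2655 in CKO mice. Levels by the library total alone moved by less than 1 SD for all 6 genes. At the depth reached, *Il6ra* in young CTL mice 2 and 3 and aged CTL mouse 99, and *Socs3* in young CTL mouse 2, were at or under 3 counts.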
